A study of Mus musculus with 52 samples.

Results

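The translation initiation factors were defined here by name, as every row of the deposited count table whose identifier belongs to a protein-coding mouse gene with a symbol starting Eif, except Eif4ebp1. This gave 54 genes of the 55487 rows. Of these, 52 passed the filter on low counts and were tested among 16668 genes. Eif4e1b, an oocyte-type cap-binding homologue, had 0 to 3 counts per library and Eif4ebp3, a binder of the cap-binding protein, had 0 to 12 counts, and neither was tested.

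The libraries came from gastrocnemius, a calf muscle, of old male mice of the C57BL/6 strain, aged 22 to 24 months, and were made from total RNA after removal of ribosomal RNA. There were 52 libraries in 13 groups of 4. AMB_W are ambulatory mice that drank plain water, and no ambulatory mice with another drink were included. In hindlimb unloading (HU) the hind legs carry no weight, and RL7 and RL14 mice were unloaded and then walked again for 7 or 14 d. Each of these 3 times has a group on water (W), on metformin (M), on leucine (L) and on metformin with leucine (ML), all given in the drinking water. Metformin is a glucose-lowering drug, and leucine is the branched-chain amino acid best known as a signal for making protein. The sources used here give neither the length of unloading nor the doses. Libraries are named by group and title number, so that RL7_M 4 is replicate 4 of RL7_M. Each was taken as 1 mouse, and since the labels do not state this, p-values measure the spread between these samples, which may be partly technical.

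Initiation is the step of protein synthesis at which a ribosome is placed on the start codon of an mRNA. The factor eIF2 brings the initiator tRNA, eIF2B reloads eIF2 with GTP, and stress kinases block that exchange by phosphorylating eIF2. The eIF4 proteins bind the cap and unwind the leader, eIF3 is the scaffold on the small subunit, and eIF1, eIF1A, eIF5 and eIF5B act in scanning, start-codon recognition and subunit joining. In muscle, loading and amino acids act on this step largely through the mTOR pathway, which releases the cap-binding protein from its binders. The transcripts measured here give the RNA of these factors, not their activity.

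The libraries held 15605044 to 32492548 counts, and the initiation factors made up 0.340% to 0.494% of them. The myofibre gene Ttn was at 143537 CPM or more in every library (CPM, counts scaled to a library size of 1e+06 with TMM factors). The liver transcript Alb was above 16 CPM in 12 libraries. Libraries RL14_ML 1 and RL7_M 4 stood apart from the rest of their groups for several members. They also had the highest balance of GC-rich over GC-poor transcripts, 1.27 and 0.85 on the log2 scale, and RL7_M 4 had a summed adipocyte marker level (Adipoq, Plin1, Cfd and Fabp4) of 853 CPM against 69.1 to 81.1 CPM in the other RL7_M libraries. Here the balance is the deviation of the genes above the upper quartile of GC content minus that of the genes below the lower quartile. In bulk muscle, fewer cells of a type and less RNA per cell cannot be told apart.

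The coding openings of 8 factors are shown so that the genes with the widest time differences can be seen beside their base composition. They are the first 90 coding bases of the 4 members with the lowest and the 4 with the highest called difference between RL7 and HU, from GENCODE vM21 on GRCm38, with G and C in capitals. Eif3j2 was left out of this choice. The first 4 belong to genes that were lower after 7 d of reloading and the last 4 to genes that were higher.
Eif5b: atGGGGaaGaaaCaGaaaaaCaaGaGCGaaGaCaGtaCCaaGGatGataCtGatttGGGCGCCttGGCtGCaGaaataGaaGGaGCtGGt
Eif2s2: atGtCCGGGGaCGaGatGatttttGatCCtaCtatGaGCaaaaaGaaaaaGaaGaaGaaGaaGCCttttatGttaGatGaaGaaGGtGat
Eif5: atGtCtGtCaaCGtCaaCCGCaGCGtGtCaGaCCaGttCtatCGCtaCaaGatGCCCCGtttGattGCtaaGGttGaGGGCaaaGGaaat
Eif3a: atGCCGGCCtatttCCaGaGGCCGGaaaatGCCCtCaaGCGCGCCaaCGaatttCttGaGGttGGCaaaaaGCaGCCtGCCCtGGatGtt
Eif6: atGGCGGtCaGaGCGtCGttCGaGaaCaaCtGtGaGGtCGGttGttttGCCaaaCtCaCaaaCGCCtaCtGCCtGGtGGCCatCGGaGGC
Eif5a: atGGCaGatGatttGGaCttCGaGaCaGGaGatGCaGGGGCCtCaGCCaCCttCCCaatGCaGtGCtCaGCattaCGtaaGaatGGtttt
Eif2ak2: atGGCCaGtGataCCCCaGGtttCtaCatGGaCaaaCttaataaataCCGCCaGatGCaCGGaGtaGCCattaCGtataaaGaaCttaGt
Eif2d: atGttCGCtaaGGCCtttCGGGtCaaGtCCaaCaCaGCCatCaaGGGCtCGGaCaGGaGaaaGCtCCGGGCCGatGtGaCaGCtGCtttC
The printed stretches alone do not separate the sets: they hold 46.7%, 36.7%, 48.9% and 54.4% GC in the first 4 and 56.7%, 50%, 42.2% and 56.7% in the last 4, in the order shown. The whole coding sequence held 43.3% GC in Eif5b, 39.9% in Eif2s2, 41.96% in Eif5 and 46.5% in Eif3a. It held 57.0% in Eif6, 50.4% in Eif5a and 52.9% in Eif2d, and Eif2ak2, at 41.4%, is the exception among the genes that were higher. On GRCm38, Eif5b lies at chr1:37998010-38055579 (plus strand), Eif2s2 at chr2:154871410-154892935 (minus), Eif5 at chr12:111538016-111546752 (plus) and Eif3a at chr19:60761117-60790658 (minus). Eif6 lies at chr2:155819832-155826925 (minus), Eif5a at chr11:69916714-69921958 (minus), Eif2ak2 at chr17:78852564-78882573 (minus) and Eif2d at chr1:131153181-131187658 (plus).

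A second set of sequences shows start sites, since mTOR-controlled mRNAs often begin with a C followed by a pyrimidine tract. RefSeq start sites on GRCm38.p6 were available for 43 of the 54 members. Transcripts that begin with C and at least 4 further pyrimidines (C or T, on the transcribed strand) were found for 2 of these genes, Eif3f and Eif2s3x. The 43 genes had 56 windows. Over all 32851 RefSeq windows the share was 2.51%, counted by window and not by gene. The windows show 15 bases before and 15 from the start site, with the tract in capitals.
Eif3f: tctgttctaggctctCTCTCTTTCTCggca
Eif2s3x: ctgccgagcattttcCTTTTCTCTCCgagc
The window of Eif3f is chr7:108934400-108934429 on the plus strand and that of Eif2s3x is chrX:94212637-94212666 on the minus strand. A match is a description of the letters in this window.

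Levels differed widely between factors. Per kilobase of exon, the median over libraries was highest for Eif1, the scanning factor that guards start-codon choice, at 90.8 CPM per kb. Eif1 shares 19.2% of its 100-base stretches with other genes, which makes its level less certain. The cap-complex scaffold Eif4g1 followed at 65.5, its relative Eif4g2 at 59.5, the helicase helper Eif4b at 52.5, the cap-binding inhibitor Eif4ebp2 at 40.2 and the eIF3 core subunit Eif3c at 39.3 CPM per kb. Among tested members the lowest were Eif5a2 at 0.410, the second gene for eIF5A, Eif3j2 at 1.03 and Eif2ak3, the kinase of endoplasmic reticulum stress, at 1.08 CPM per kb. Eif5a, the ubiquitous eIF5A gene, was at 32.5 CPM per kb. Between the eIF2 kinases, Eif2ak1 stood at 8.07 CPM per kb, above Eif2ak4 at 1.65 and Eif2ak2 at 1.57.

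The spread of levels over the groups was small for most factors. The highest group mean exceeded the lowest by 1.14-fold for Eif2b5, the catalytic subunit of eIF2B, and by 1.17-fold for Eif4h. It did so by 2.69-fold for Eif5b, the GTPase of subunit joining, 2.45-fold for Eif2s2, the beta subunit of eIF2, 2.22-fold for Eif3a and 2.06-fold for Eif5. Across the 13 groups, 31 of the 52 tested members differed (edgeR quasi-likelihood F test, adjusted p under 0.05), against 40% of all genes tested. The smallest adjusted p-values were those of Eif5 (2.53e-06), Eif4b (6.51e-05), Eif3a (0.000308), Eif5a (0.000385), Eif5b (0.000535) and Eif4enif1 (0.000587), which encodes a transporter of the cap-binding protein.

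**Figure D1:**
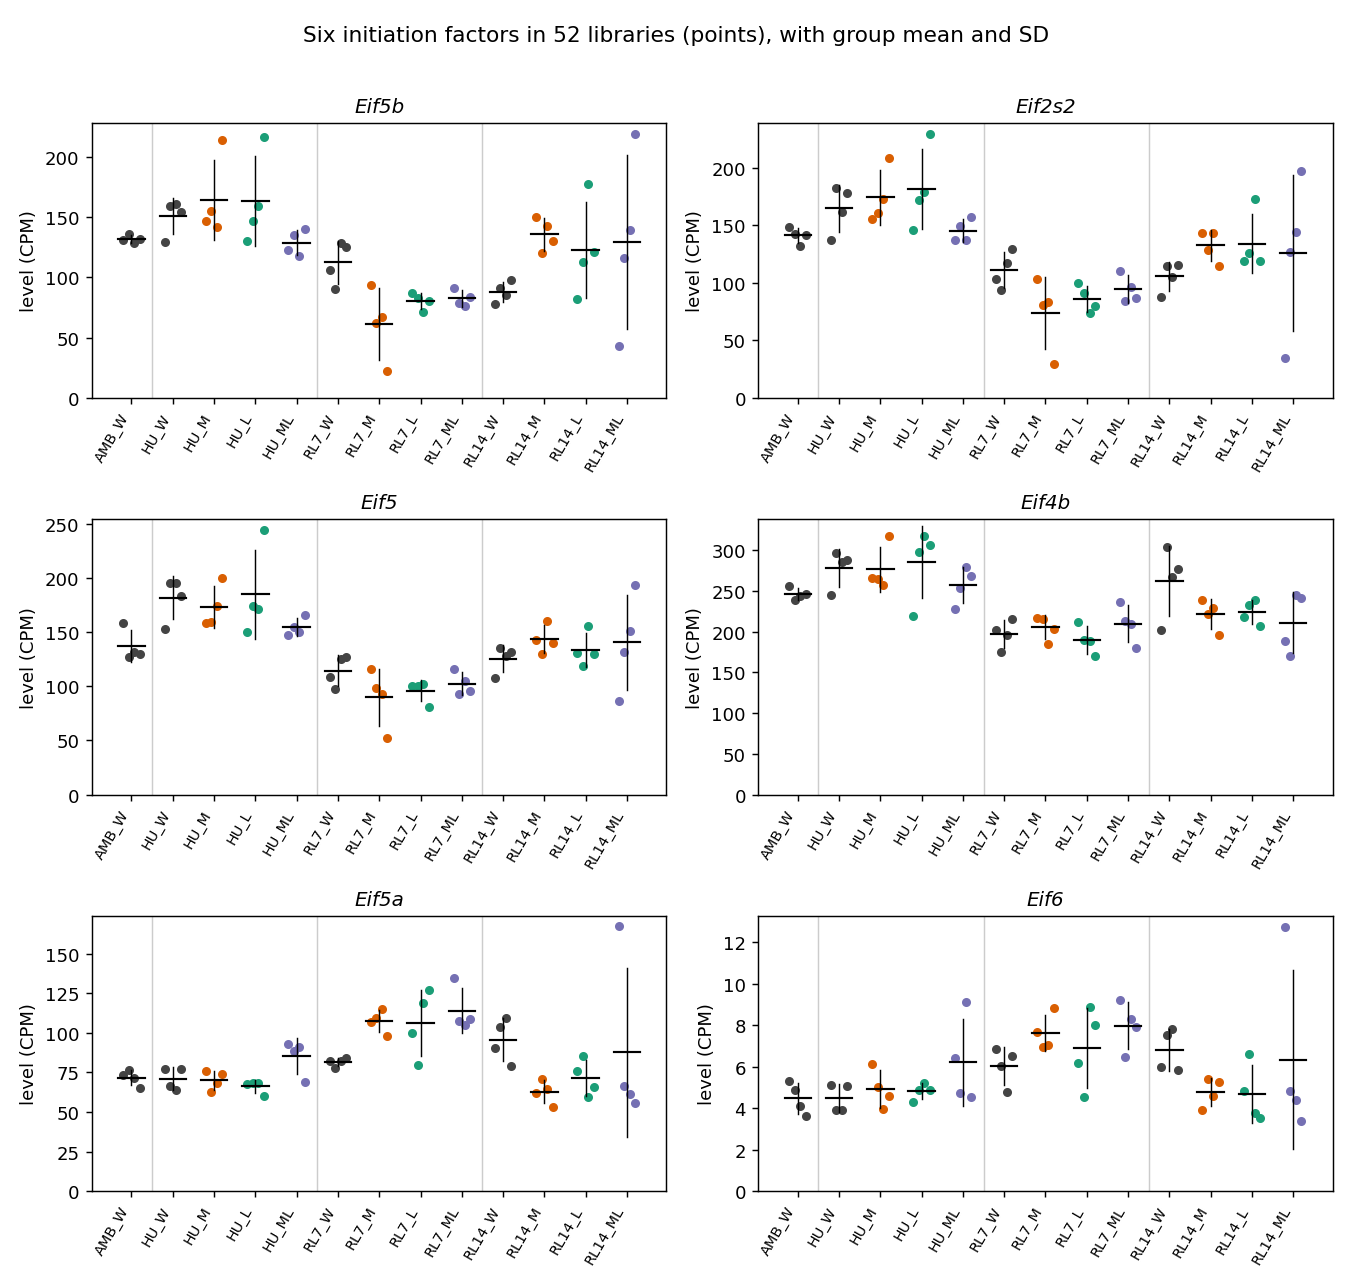
Level in CPM of 6 factors in each of the 52 libraries (points, y axis from 0) by group (x axis), with group mean (horizontal bar) and SD (vertical bar); grey marks water, orange metformin, green leucine and violet both. Eif5b, Eif2s2 and Eif5 are lower in the RL7 groups than in the HU groups, Eif5a is higher, and the libraries RL7_M 4 and RL14_ML 1 lie at the edge of their groups.

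Between unloaded and ambulatory mice on water, no initiation factor passed the threshold. In HU_W against AMB_W, 0 of 52 members were called with edgeR, against 2.78% of all genes, 3 members had an unadjusted p under 0.05, and DESeq2 called 1. Without HU_W 3, edgeR called 1. Eif2ak4, the kinase that senses uncharged tRNA in amino acid shortage, came closest. It measured 10.6, 10.2, 11.2 and 9.69 CPM in AMB_W and 14.6, 14.5, 11.8 and 13.1 CPM in HU_W. All HU_W libraries lay above all AMB_W libraries, with a log2 fold change of 0.38 (SE 0.11, adjusted p = 0.0506, edgeR). The highest estimate was 0.41 for Eif5, with an adjusted p of 0.224. The lowest was -0.31 for Eif2b4, a regulatory subunit of eIF2B, with an adjusted p of 0.166.

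Of 28 related genes outside the name rule (regulators, cofactors and readers of initiation), 2 were called in this comparison, against 2.78% of all genes. Eif4ebp1, the inhibitor of cap binding that the rule left out, was at 10.3 ± 1.15 CPM in AMB_W and 18.8 ± 1.14 CPM in HU_W (SD, n = 4), and rose by 0.87 (adjusted p = 0.00964, edgeR). Pabpc4, a poly(A)-binding protein, fell from 208 ± 3.74 to 147 ± 20.5 CPM, a log2 change of -0.50 (adjusted p = 0.00390).

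On water, 2 members were lower after 7 d of reloading than in unloading, Eif4b and Eif5. RL7_W against HU_W had 4.88% of all genes called, 1.97% higher and 2.9% lower, and 2 of 52 members, both lower. The groups did not overlap, in either direction, for 12 of 52 members and 17.2% of all genes. Eif4b stimulates the eIF4A helicase, and Eif5 is the GTPase activator that triggers release of eIF2 at the start codon.

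Eif4b (chr15:102073773-102097173, plus strand) measured 244, 296, 285 and 288 CPM in HU_W and 202, 175, 196 and 216 CPM in RL7_W. Every RL7_W library was below every HU_W library, and the log2 fold change was -0.50 (SE 0.12, adjusted p = 0.00663, edgeR). Eif5 measured 153, 195, 196 and 183 CPM in HU_W and 108, 97.6, 125 and 127 CPM in RL7_W. These groups did not overlap either, with a log2 fold change of -0.67 (SE 0.17, adjusted p = 0.0109). Without RL7_W 2, the lowest RL7_W library for Eif5, the adjusted p of Eif5 was 0.0621 and Eif4b alone was called. With the level of a 5.8S ribosomal RNA gene as a covariate, Eif4b was called (adjusted p = 0.0307) and Eif5 was not (adjusted p = 0.0650). That gene averaged 10.3 ± 2.76 CPM in HU_W and 4.99 ± 2.22 CPM in RL7_W (SD, n = 4). The summed endothelial markers averaged 144 CPM in HU_W and 203 CPM in RL7_W and the summed myofibre markers 275712 and 242045 CPM, and their part in the result was not tested.

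The lowest estimate among the other members was -0.57 for Eif2s2 (adjusted p = 0.202). The 3 highest were 0.43 for Eif2ak2 (adjusted p = 0.157), 0.43 for Eif6 (0.352) and 0.29 for Eif2b4 (0.146). Eif2ak2 is the kinase activated by double-stranded RNA, and Eif6 keeps large subunits from joining. Of the 52 estimates 41 were below 0. Among the related genes, Pabpc4 rose by 0.42 (adjusted p = 0.0131). Atf4, the stress transcription factor whose translation depends on eIF2, fell by 0.46 on the log2 scale (adjusted p = 0.0258).

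Against ambulatory mice, no member was called after reloading on water. RL7_W against AMB_W had 0% of all genes called and RL14_W against AMB_W 0.174%, while RL14_W against RL7_W had 0.036%. In each, edgeR and DESeq2 called 0 members, and 4, 10 and 6 members had an unadjusted p under 0.05. The estimates ran from -0.37 for Eif2a, an alternative initiator tRNA carrier, to 0.43 for Eif6 at RL7. At RL14 they ran from -0.58 for Eif5b to 0.60 for Eif6, and between RL14_W and RL7_W from -0.58 for Eif3j2 to 0.41 for Eif4b. In the related genes Eif4ebp1 was 0.96 higher in RL14_W than in AMB_W (adjusted p = 0.0442, log2 scale). Ppp1r15a, the stress-induced eIF2 phosphatase subunit, was 0.90 higher (0.0279) and Atf4 0.59 higher (0.0442). Atf4 was also 0.68 higher in RL14_W than in RL7_W (0.0132), a comparison that shares the RL14_W libraries.

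Averaged over the 4 drinks, 32 of 52 members differed between RL7 and HU, 26 lower and 6 higher. Over all genes tested 52.7% were called, 29.2% higher and 23.5% lower. The members' share called was 61.5%. Their median log2 fold change was -0.16, against 0.05 over all genes, and 38 of 52 estimates were below 0. The comparison uses 16 libraries on each side, and each drink has the same weight.

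Group means of some cell type markers differed between the same times, while single libraries overlapped. The sum of 7 myofibre markers averaged 275712 to 290477 CPM in the HU groups and 242045 to 262497 CPM in the RL7 groups. Over libraries it ran from 244725 to 309577 CPM in HU and from 219717 to 286601 CPM in RL7. The sum of 4 endothelial markers (Pecam1, Cdh5, Kdr and Tek) ran from 122 to 199 CPM over the HU libraries and from 148 to 236 CPM over the RL7 libraries. Group means of the 5 macrophage markers lay between 7.99 and 17.5 CPM in HU and between 18.1 and 29.6 CPM in RL7, and none of these myofibre, endothelial or macrophage markers was at 0 in any library. Ttn and Myh4, with medians of 195179 and 52172 CPM, made up most of the myofibre sum. Group means of the fibroblast markers overlapped, at 304 to 432 CPM in HU and 384 to 423 CPM in RL7. Those of the satellite cell markers did too, at 8.17 to 10.1 and 8.12 to 9.28 CPM. For the 5 red blood cell markers the group means ran from 10.6 to 63.5 CPM in HU and from 6.65 to 13.1 CPM in RL7. The part of these markers in the differences of the initiation factors was not tested.

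Against the shares over all genes given above, counts by role are a description only. The genes of start-codon recognition and subunit joining held some of the widest differences. Eif5 ran from 147 through a median of 169 to 245 CPM over the 16 HU libraries, and from 52.3 through 100.4 to 127 CPM over the RL7 libraries. All RL7 libraries were below all HU libraries, and Eif5 fell by 0.79 on the log2 scale (SE 0.08, adjusted p = 2.08e-10, edgeR). Ranges without overlap were found for 2 members and for 1.37% of all genes. Eif5b ran from 118 through 147 to 216 CPM in HU and from 21.9 through 83.4 to 128 CPM in RL7, with a log2 change of -0.88 (SE 0.14, adjusted p = 1.19e-06). The ranges of Eif5b overlapped, and its lowest value was that of RL7_M 4. Eif2a (-0.43), Eif1b (-0.22), Eif1 (-0.16) and Eif1ax (-0.16) fell too. Eif6 and Eif2d, a factor that delivers tRNA without GTP, rose by 0.49 (adjusted p = 0.00123) and 0.22 (0.00463). Eif6 ran from 3.91 through 4.88 to 9.10 CPM in HU and from 4.53 through 6.98 to 9.20 CPM in RL7, so its ranges overlapped widely.

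Within eIF2 and its exchange factor eIF2B, 5 of 9 members fell and 0 rose, a called share close to the 52.7% of all genes. Eif2s2 ran from 137 through 161 to 229 CPM in HU and from 29.8 through 92.5 to 129 CPM in RL7. Its ranges did not overlap, and it fell by 0.88 (SE 0.13, adjusted p = 4.90e-07). Eif2s2 shares 18.8% of its 100-base stretches with Gm9892 and Eif2s3x 35.3% with Gm2223, which makes their values less certain. The gamma subunit genes Eif2s3y (-0.55) and Eif2s3x (-0.17) fell, as did the eIF2B subunit genes Eif2b3 (-0.41) and Eif2b1 (-0.17). Eif2s1, the alpha subunit that the kinases phosphorylate, had an estimate of -0.06 and did not pass the threshold.

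Of the 4 eIF2 kinases 1 fell and 1 rose, where 52.7% of all genes were called. Eif2ak1, the kinase of haem shortage and mitochondrial stress, ran from 38.1 through 51.8 to 60.8 CPM in HU and from 32.1 through 39.1 to 50.1 CPM in RL7, and fell by 0.37 (adjusted p = 6.07e-06). Eif2ak2 ran from 5.25 through 7.42 to 9.39 CPM in HU and from 6.86 through 8.08 to 11.2 CPM in RL7, and rose by 0.22 (adjusted p = 0.0345). Eif2ak2 was higher on water, leucine and both and lower on metformin, and without RL7_L 2 its adjusted p was 0.0979. Eif2ak3 and Eif2ak4 did not pass the threshold.

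Of 14 eIF3 subunit genes, 7 fell and 2 rose, where 23.5% of all genes were lower and 29.2% higher. Eif3a, the largest scaffold subunit, ran from 176 through 253 to 304 CPM in HU and from 65.3 through 156 to 221 CPM in RL7, and fell by 0.69 (SE 0.11, adjusted p = 9.34e-07). Eif3j2 (-0.74), Eif3j1 (-0.60), Eif3e (-0.59), Eif3c (-0.42), Eif3m (-0.29) and Eif3h (-0.20) fell as well. Eif3k rose by 0.18 (adjusted p = 0.00222) and Eif3d, which can itself bind the cap, by 0.14 (adjusted p = 0.00477). Eif3j1 and Eif3j2 share 36.04% and 84.0% of their 100-base stretches with each other, so the split of reads between them is uncertain.

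In the cap-binding and helicase group, 6 of 11 tested members fell and 0 rose, a called share close to the 52.7% of all genes. Eif4b ran from 219.5 through 273 to 318 CPM in HU and from 170.3 through 203 to 236 CPM in RL7, and fell by 0.45 (SE 0.06, adjusted p = 2.66e-08). The scaffold gene Eif4g3 fell by 0.39, the helicase genes Eif4a1 and Eif4a2 by 0.33 and 0.22, Eif4g2 by 0.22 and the cap-binding homologue Eif4e2 by 0.15. Eif4a1 shares 60.8% of its 100-base stretches with a pseudogene and another copy, which makes its value uncertain. The cap-binding protein itself, Eif4e, had an estimate of -0.13 and the scaffold Eif4g1 of 0.02, neither past the threshold.

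Eif4enif1 fell by 0.29 (SE 0.04, adjusted p = 2.02e-07), from a median of 39.7 to 33.003 CPM. Eif4ebp2 had an estimate of -0.01 and did not pass. Eif5a, which helps ribosomes through slow stretches and carries hypusine, ran from 60.3 through 68.7 to 93.0 CPM in HU and from 78.0 through 106 to 135 CPM in RL7. It rose by 0.48 (SE 0.09, adjusted p = 3.21e-05), while Eif5a2 had an estimate of -0.21 and did not pass.

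**Figure D2:**
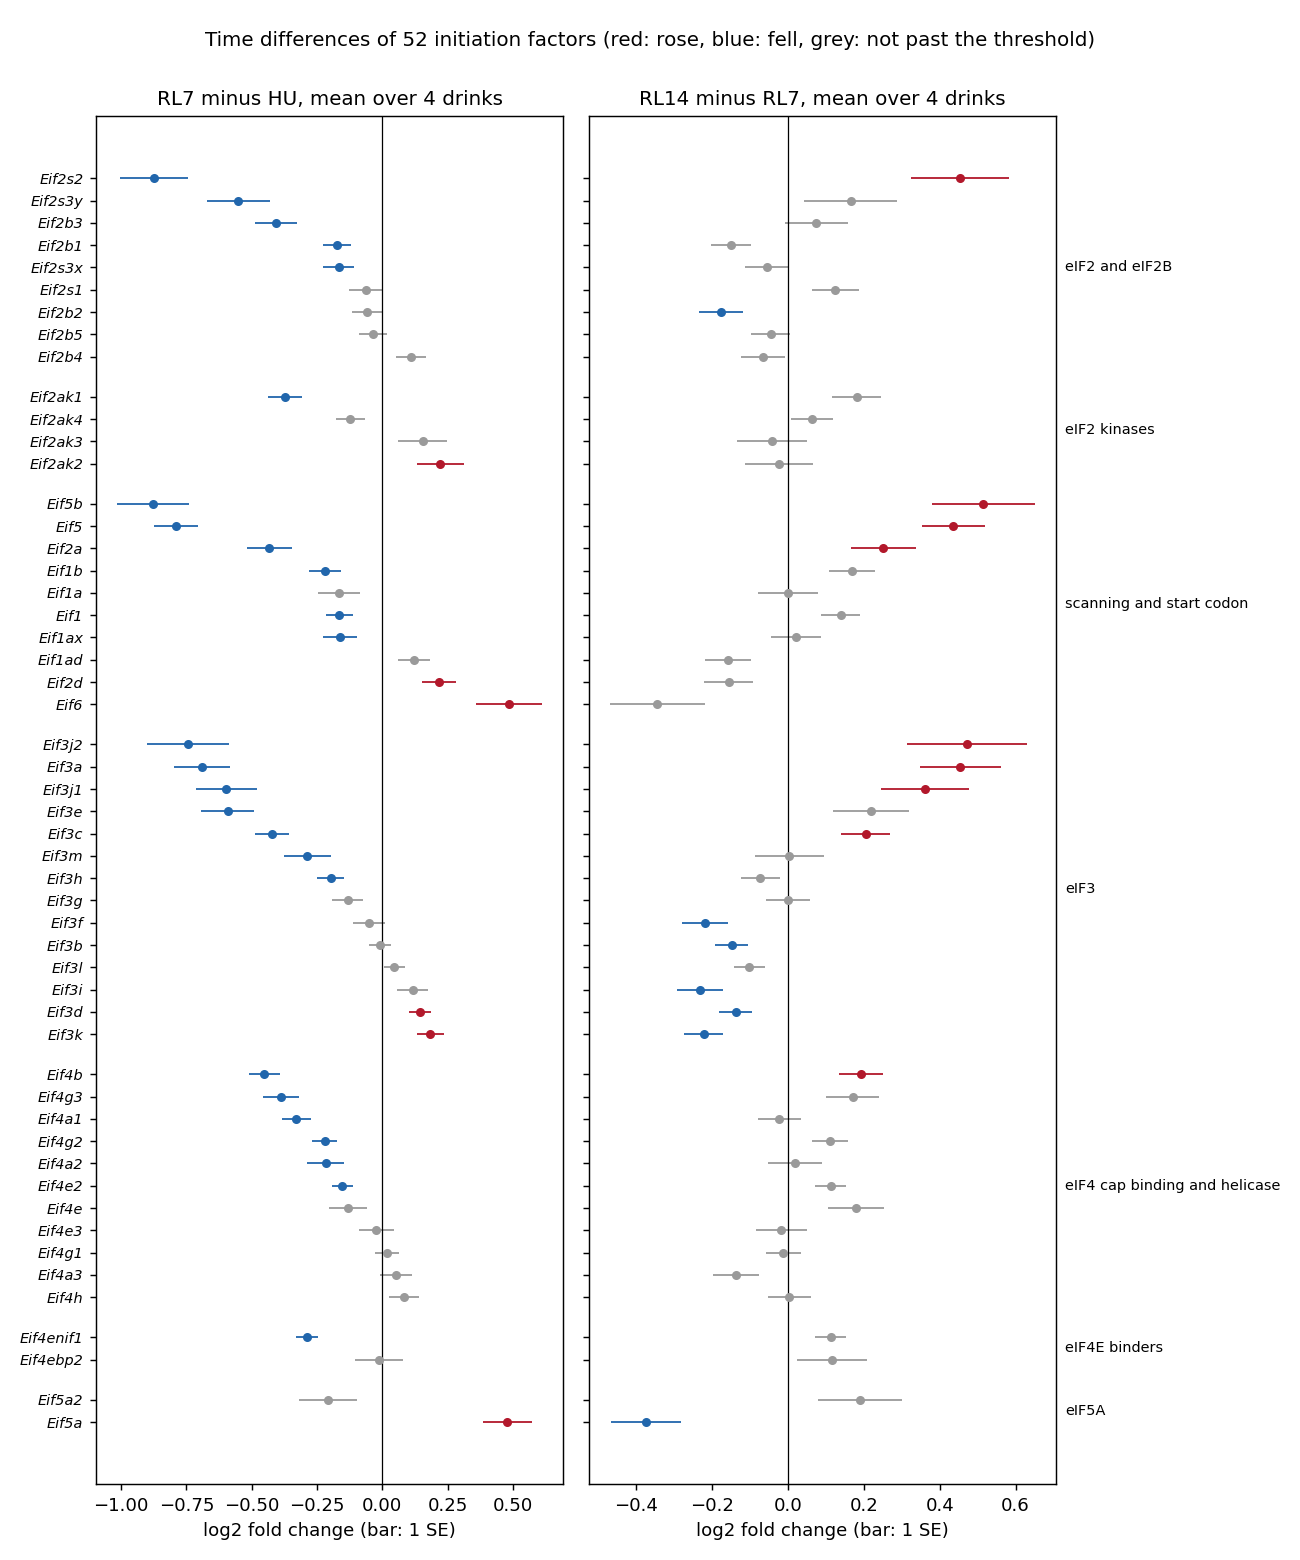
Log2 fold change (x axis) of the 52 tested factors (y axis, grouped by role) for RL7 minus HU (left) and RL14 minus RL7 (right), each a mean over 4 drinks, with bars of 1 SE; the panels have different scales. On the left 26 factors fell (blue) and 6 rose (red), and on the right 9 rose and 7 fell.

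Among the 28 related genes 18 were called in RL7 against HU, 16 lower and 2 higher, where 52.7% of all genes were called. The mTOR target kinase Rps6kb1 fell by 0.67, the methionine aminopeptidase Metap2 by 0.61, the helicase Ddx3x by 0.61, the ribosome recycling factor Abce1 by 0.56 and Eif4ebp1 by 0.53. Pabpc4 rose by 0.31 and Bzw2, an eIF5 mimic, by 0.14.

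The estimates in single drinks had the same sign for most called members. Eif5 was lower in RL7 than in HU by 0.67 on water, 1.00 on metformin, 0.93 on leucine and 0.60 on both, given as differences of log2 group values. Eif5b was lower by 0.43, 1.58, 1.00 and 0.64 in that order, and Eif2s2 by 0.57, 1.36, 1.07 and 0.62. Eif5a was higher by 0.21, 0.61, 0.66 and 0.42. A test of whether drink effects differ between times is given below.

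Transcript GC content moved with these differences. Over 13375 protein-coding genes tested, Spearman's correlation between the log2 fold change and transcript GC content was 0.48, and over the 52 members it was 0.62, across genes that share the same libraries. The called members that rose had a median GC content of 54.4% and those that fell of 44.5%. The GC balance of the libraries averaged -0.25, -0.34, -0.30 and -0.01 in the HU groups on water, metformin, leucine and both, and 0.03, 0.45, 0.31 and 0.35 in the RL7 groups in that order. After removal of each library's GC trend, an alternative added after seeing the data, 33 members were called, 30 lower and 3 higher, and 24 of the 32 members kept their call and sign. Over all genes 7531 were called in that fit. Eif5 (-0.64), Eif5b (-0.78), Eif2s2 (-0.74), Eif3a (-0.60) and Eif4b (-0.51) were among those that fell there, and Eif5a (0.23) and Eif2ak2 (0.33) among those that rose. The other 8 lost their call: Eif6 (0.13), Eif2d (0.05), Eif4g2 (-0.10), Eif4a2 (-0.11), Eif2s3x (-0.07), Eif3d (-0.09), Eif3k (-0.03) and Eif1ax (0.03), the last 3 with a change of sign. The 9 members called there but not in the plain fit were Eif3g (-0.42), Eif2b2 (-0.31), Eif3b (-0.30), Eif2b5 (-0.21), Eif2ak4 (-0.20), Eif4g1 (-0.19), Eif4h (-0.18), Eif4a3 (-0.16) and Eif2s1 (0.11).

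The 5.8S ribosomal RNA gene was mostly lower in RL7 than in HU. Its mean lay between 4.76 and 19.8 CPM in the HU groups and between 0.771 and 4.99 CPM in the RL7 groups. The lowest HU mean, in HU_ML, was near the highest RL7 mean, in RL7_W. The gene did not follow time alone, with means of 0.718 CPM in RL14_W and 18.4, 19.1 and 24.4 CPM in RL14_M, RL14_L and RL14_ML. With its log2 CPM as a covariate, also added after seeing the data, 0 of 52 members and 474 of all 16668 genes were called. Eif5 then had a log2 fold change of -0.54 with an adjusted p of 0.0784, Eif4b of -0.37 with 0.0957, and Eif2b1 turned to 0.02. Between HU and RL7, time and this measure largely coincide, so their parts in the differences cannot be told apart. Without the 12 libraries rich in Alb, 28 members were called, 25 lower and 3 higher.

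**Figure D3:**
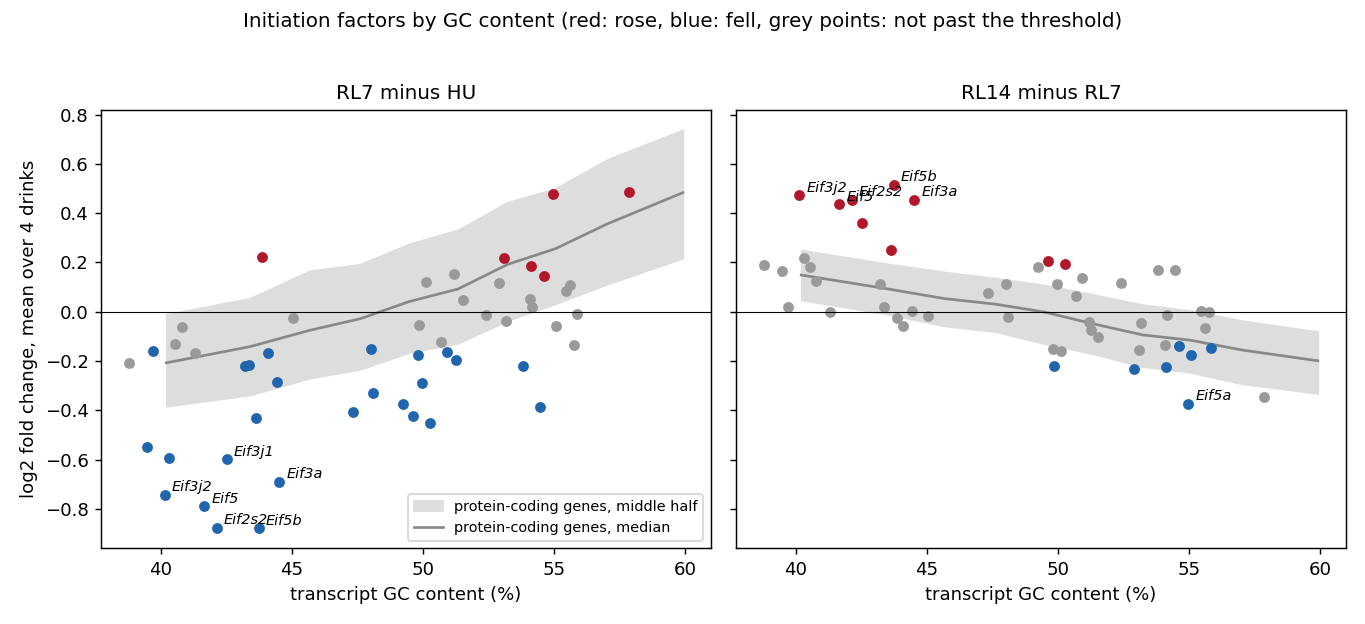
Log2 fold change (y axis, mean over 4 drinks) against transcript GC content in % (x axis) for 52 factors (points), with the median (line) and interquartile range (band) of 13375 protein-coding genes in 10 bins of GC content. GC-poor factors such as Eif5b, Eif2s2 and Eif5 lie below the band for RL7 minus HU and above it for RL14 minus RL7.

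Between 7 and 14 d of reloading, averaged over drinks, 16 of 52 members differed, 9 higher and 7 lower, a called share of 30.8%. Over all genes 13.5% were called, 7.35% higher and 6.13% lower. This comparison shares the RL7 libraries with the one above, so an opposite sign in both is partly fixed by those libraries. The group means of the summed myofibre markers were 266192 to 287773 CPM at RL14, above those at RL7. The libraries overlapped, from 219284 to 323952 CPM at RL14 and from 219717 to 286601 CPM at RL7. The part of these markers in the result was not tested.

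Among the scanning and joining factors Eif5b, Eif5 and Eif2a rose. Eif5b ran from 42.8 through 118 to 219 CPM in RL14 and rose by 0.51 (SE 0.14, adjusted p = 0.0101, edgeR). Eif5 ran from 86.7 through 131 to 193 CPM and rose by 0.44 (SE 0.08, adjusted p = 0.000450). RL14_ML 1 gave the lowest of these RL14 values for both genes, and the ranges overlapped those of RL7. Eif2s2 rose by 0.45 and Eif2b2, a subunit of eIF2B, fell by 0.18.

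Of the 14 eIF3 genes 4 rose and 5 fell, where 7.35% of all genes were higher and 6.13% lower. Eif3j2 (0.47), Eif3a (0.45), Eif3j1 (0.36) and Eif3c (0.20) rose. Eif3i (-0.23), Eif3k (-0.22), Eif3f (-0.22), Eif3b (-0.15) and Eif3d (-0.14) fell. Eif4b rose by 0.19, and 10 other tested genes of the cap-binding and helicase group did not pass. Eif5a ran from 53.4 through 68.6 to 167 CPM in RL14 and fell by 0.37 (adjusted p = 0.00587), with its highest value in RL14_ML 1. Of the related genes 6 rose, among them Ddx3x (0.33) and Paip2 (0.33), an inhibitor of poly(A)-binding protein, and 0 fell.

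The estimates on water had the opposite sign to the treated drinks for some genes. Eif5b was 0.35 lower in RL14_W than in RL7_W, and 1.32, 0.56 and 0.43 higher on metformin, leucine and both. Eif5a was 0.22 higher on water and 0.78, 0.56 and 0.53 lower in that order. In the F test of whether drink effects differ between times, neither passed (adjusted p = 0.182 for Eif5b and 0.202 for Eif5a). The GC balance averaged 0.03 in RL7_W and 0.31 to 0.45 in the other RL7 groups. It averaged 0.28 in RL14_W and -0.21 to 0.06 in the other RL14 groups. The 5.8S gene averaged 4.99 CPM in RL7_W and 0.771 to 1.76 CPM in the other RL7 groups. It averaged 0.718 CPM in RL14_W and 18.4 to 24.4 CPM in the other RL14 groups. The part of these measures in the sign difference was not tested. Spearman's correlation of the log2 fold change with GC content was -0.49 over all genes and -0.62 over members. With the GC trend removed 13 members were called, 12 higher and 1 lower, of which 7 were also called with the same sign in the plain fit. Over all genes 1665 were called there. With RLE scaling the split was 14 higher and 6 lower. With the 5.8S covariate 0 were called, without the Alb-rich libraries 3, and without RL14_ML 1 there were 29, 19 of them higher.

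Few members passed the threshold between drinks. In the unloaded mice 0 of 52 members were called in HU_M, HU_L or HU_ML against HU_W with edgeR or DESeq2, where 0%, 0.006% and 0.048% of all genes were called, and 1, 0 and 3 members had an unadjusted p under 0.05. The estimates ran from -0.23 for Eif1ad to 0.21 for Eif5a2 in HU_M, from -0.18 for Eif2ak4 to 0.42 for Eif5a2 in HU_L and from -0.23 for Eif5 to 0.46 for Eif6 in HU_ML. At 7 d the called shares of all genes were 0.138% for RL7_M, 0.078% for RL7_L and 0.006% for RL7_ML against RL7_W, and 0 members were called by either tool. There 15, 4 and 6 members had an unadjusted p under 0.05.

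In RL7_M the estimates were -1.14 for Eif3j2 (adjusted p = 0.148), -0.88 for Eif5b (0.182) and -0.69 for Eif3a (0.176). Eif5b measured 107, 90.3, 128 and 125 CPM in RL7_W and 94.0, 62.0, 66.8 and 21.9 CPM in RL7_M. The ranges of Eif5b overlapped by 1 library, RL7_M 1, and without that library 2 members were called lower. The lowest value, 21.9 CPM, was that of RL7_M 4, which stood apart from its group. That library had a GC balance of 0.85 and an adipocyte marker sum of 853 CPM. The estimates without RL7_M 4 are not given here. The GC balance was 0.03 in RL7_W and 0.45 in RL7_M, and over the members Spearman's correlation of the estimates with GC content was 0.75. The highest estimates in RL7_M were 0.39 for Eif5a and 0.33 for Eif6. In RL7_L the lowest were -0.74 for Eif3j2 and -0.49 for Eif5b, and the highest 0.38 for Eif5a and 0.35 for Eif2d. In RL7_ML the lowest were -0.61 for Eif3j2 and -0.45 for Eif5b, and the highest 0.48 for Eif5a and 0.42 for Eif3i.

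After 14 d of reloading 4 members were lower on metformin than on water. RL14_M against RL14_W had 5.12% of all genes called, 1.54% higher and 3.58% lower. The groups did not overlap, in either direction, for 15 of 52 members and 17.8% of all genes. The called members were Eif3f, Eif4g1, Eif2d and Eif5a, and 0 members were called higher. The highest estimates, none past the threshold, were 0.69 for Eif3j2 (adjusted p = 0.168), 0.63 for Eif5b (0.151) and 0.50 for Eif3a (0.142).

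Eif3f, an eIF3 subunit with a start-site tract shown above, measured 50.4, 54.7, 65.2 and 48.9 CPM in RL14_W and 37.3, 39.5, 42.9 and 38.5 CPM in RL14_M. All RL14_M libraries lay below all RL14_W libraries, and also below the AMB_W mean of 45.9 CPM. Its log2 fold change was -0.47 (SE 0.12, adjusted p = 0.0234, edgeR). Eif4g1 (chr16:20668313-20692884, plus strand) measured 521, 603, 562 and 514 CPM in RL14_W and 462, 417, 462 and 390.1 CPM in RL14_M. Again the groups did not overlap, and the log2 fold change was -0.35 (SE 0.09, adjusted p = 0.0235).

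Eif2d measured 13.3, 12.7, 14.9 and 11.5 CPM in RL14_W and 9.07, 10.1, 9.82 and 9.70 CPM in RL14_M, a log2 fold change of -0.44 (SE 0.13, adjusted p = 0.0400). Its groups did not overlap. Its exons overlap those of Rassf5 on the opposite strand, and the strand setting of the counting is not given in the sources used here. Eif5a measured 90.6, 104, 109.6 and 78.9 CPM in RL14_W and 62.0, 71.0, 64.6 and 53.4 CPM in RL14_M, with a log2 fold change of -0.61 (SE 0.18, adjusted p = 0.0442). These groups did not overlap either, and the RL14_W libraries were above all 4 AMB_W libraries (65.2 to 76.6 CPM). RL14_W and AMB_W did not overlap for 17.6% of all genes.

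**Figure D4:**
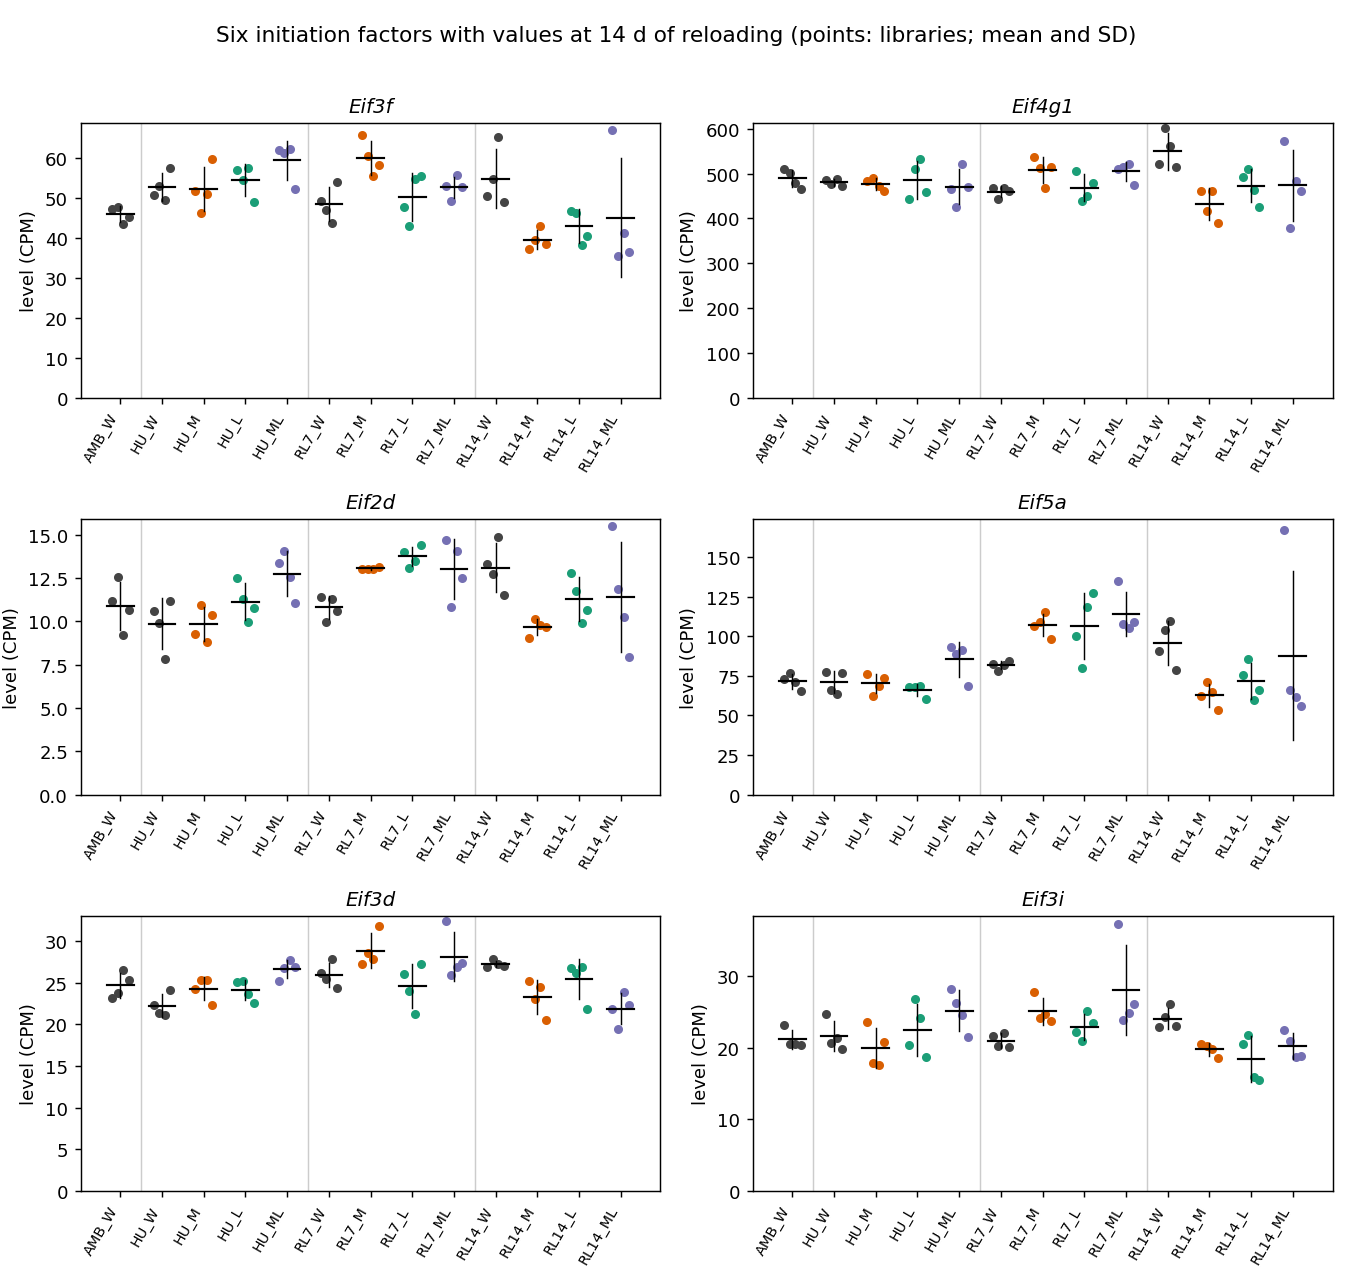
Level in CPM of 6 factors in each library (points, y axis from 0) by group (x axis), with mean and SD; colours as in the plot of factors by time. In Eif3f, Eif4g1, Eif2d and Eif5a every RL14_M library (orange) is below every RL14_W library (grey). These groups did not overlap, in either direction, for 17.8% of all genes. Eif3d and Eif3i are shown because their drink effects were among those that varied most with time.

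The same 4 genes were not called on leucine or on both. In RL14_L the highest estimates were 0.59 for Eif3j2 (adjusted p = 0.339), 0.54 for Eif3a (0.198) and 0.48 for Eif5b (0.362). Its lowest were -0.53 for Eif6 (0.276), -0.42 for Eif5a (0.238) and -0.38 for Eif3i (0.117). In RL14_ML the highest were 0.55 for Eif5b (0.449), 0.48 for Eif3a (0.383) and 0.45 for Eif3j2 (0.640), and the lowest -0.33 for Eif1 (0.131), -0.32 for Eif3d (0.0682) and -0.31 for Eif4b (0.263). Of all genes 0.294% were called in RL14_L and 0.714% in RL14_ML, with 0 members in either by edgeR. DESeq2 called 0 and 1 members, and 8 and 13 had an unadjusted p under 0.05. Without RL14_ML 1, 12 members were called in RL14_ML against RL14_W, 8 lower and 4 higher. Without RL14_ML 4 it was 2, both lower.

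The call of 4 in RL14_M rests on single libraries. It was 0 without RL14_W 3, RL14_W 4, RL14_M 2 or RL14_M 6, and 1 without RL14_M 1. The 5.8S gene averaged 0.718 ± 0.299 CPM in RL14_W and 18.4 ± 5.00 CPM in RL14_M (SD, n = 4), and with it as a covariate 0 members and 0 of all genes were called. The GC balance was 0.28 in RL14_W and -0.21 in RL14_M. Summed endothelial markers averaged 178 and 213 CPM and summed adipocyte markers 83.3 and 139 CPM in these groups, and their part in the result was not tested. With the GC trend removed, Eif3f (adjusted p = 0.0232) and Eif5a (0.0482) were called and Eif2d (0.0570) and Eif4g1 (0.182) were not. Which of these measures bears on the 4 genes cannot be told apart from the groups.

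In the related genes of RL14_M, 4 of 28 fell and 0 rose, where 3.58% of all genes were lower and 1.54% higher. With the ribosomal RNA gene as a covariate, as given above, 0 of all genes were called, so these 4 lost their call too. Eif4ebp1 went from 19.9 ± 2.61 to 11.3 ± 1.24 CPM (SD, n = 4), a log2 change of -0.82 (adjusted p = 0.0202, edgeR). Atf4 fell by 0.63 (0.00584), Ppp1r15a by 0.74 (0.0175) and Dohh, an enzyme of hypusine formation on eIF5A, by 0.74 (0.0478). Ppp1r15a also fell in RL14_L, by 0.88 (adjusted p = 0.0150), and in RL14_ML, by 0.94 (0.00365).

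Averaged over the 3 times, no member was called for any drink. The called shares of all genes were 0.048% for M, 0.072% for L and 0.036% for ML against W, and edgeR and DESeq2 called 0 of 52 members in each, with 2, 1 and 2 members at an unadjusted p under 0.05. The estimates ran from -0.19 for Eif5a2 to 0.11 for Eif4e2 on metformin. They ran from -0.15 for Eif4ebp2 to 0.11 for Eif3a on leucine, and from -0.16 for Eif3e to 0.26 for Eif6 on both.

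The drink effect of 1 member, Eif3d, differed between times (edgeR F test on 6 terms, adjusted p = 0.0363), against 0.93% of all genes. Eif3d measured 26.1, 25.5, 27.8 and 24.3 CPM in RL7_W and 32.4, 25.9, 26.9 and 27.3 CPM in RL7_ML. At 14 d it measured 26.8, 27.8, 27.25 and 27.04 CPM in RL14_W and 21.9, 19.4, 23.8 and 22.3 CPM in RL14_ML. The RL14 groups did not overlap, while the RL7 groups did. RL14_ML and RL14_W did not overlap for 4 members and 3.28% of all genes. The next were Eif3f (0.108), Eif3i (0.125), Eif2d (0.128), Eif3l (0.151) and Eif3j2 (0.152). Without RL14_ML 1, 14 members were called, Eif3d among them. The call of Eif3d was absent with RLE scaling (0.0605), with the GC trend removed (0.323) and without RL14_W 3 (0.135), among other libraries. Its exons overlap an antisense gene, Gm17638.

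**Figure D5:**
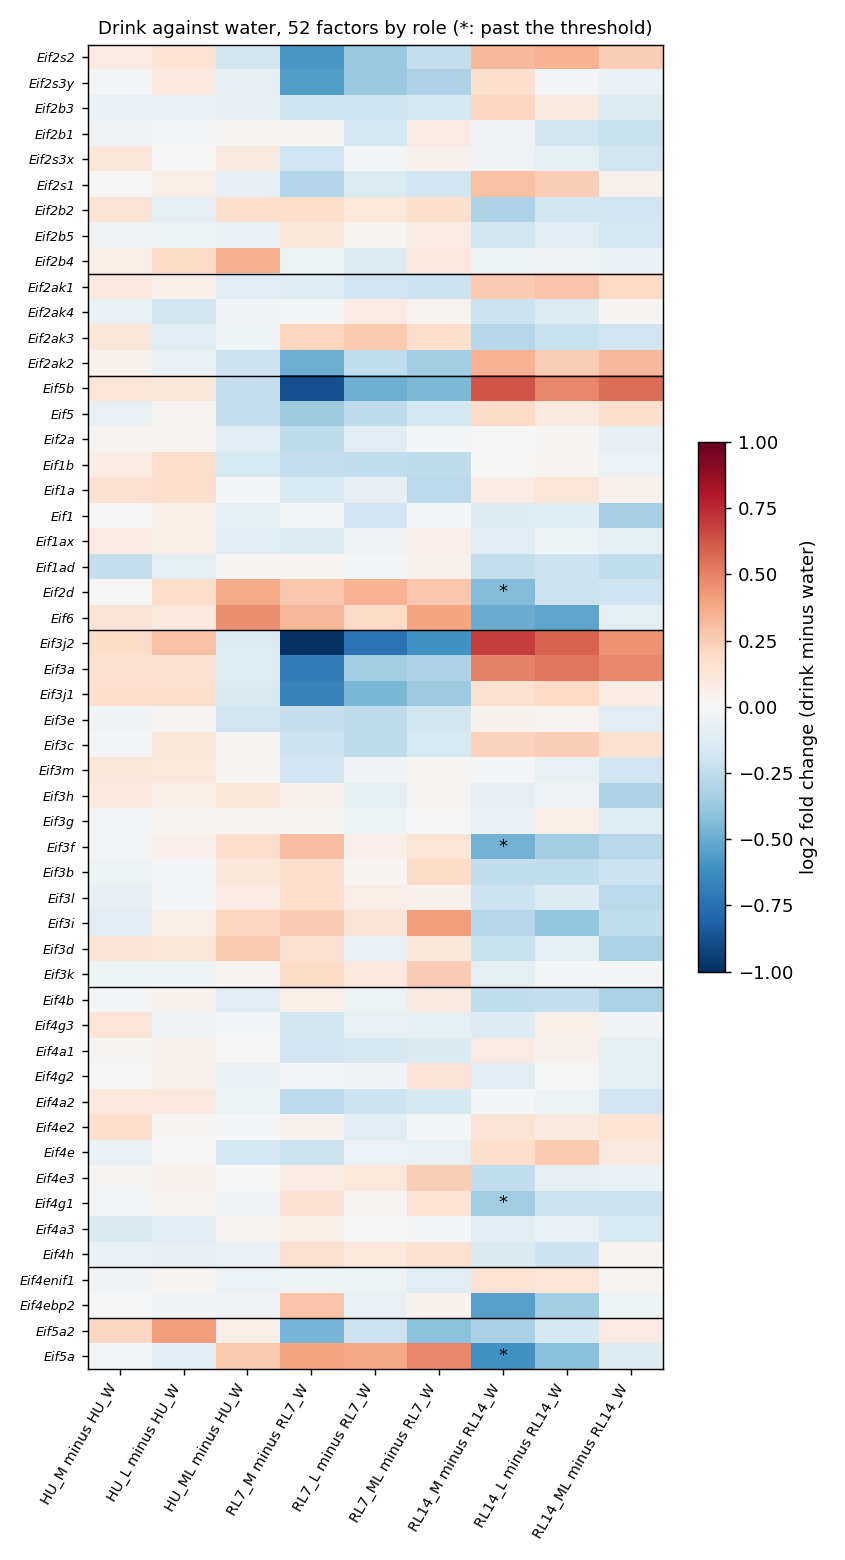
Log2 fold change (colour, red higher and blue lower than water of the same time) of 52 factors (y axis, in the role order of the plot of time differences) in 9 drink comparisons (x axis), with a colour scale that saturates just short of the lowest estimate (Eif3j2 in RL7_M, -1.14) and an asterisk where the adjusted p is under 0.05. The 4 asterisks are Eif2d, Eif3f, Eif4g1 and Eif5a in RL14_M, and Eif5b, Eif3j2 and Eif3a are blue at 7 d and red at 14 d.

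Base composition divided the members in most of these comparisons. Spearman's correlation of log2 fold change with GC content over the 52 members was -0.15 in HU_W against AMB_W, 0.32 in RL7_W against HU_W, 0.62 in RL14_W against AMB_W, and -0.60, -0.55 and -0.46 in RL14_M, RL14_L and RL14_ML against RL14_W. Over all protein-coding genes the values were 0.30, 0.58, -0.47, -0.47 and -0.23 in that order, from RL7_W against HU_W on. The comparisons with RL14_W share its libraries, so the opposite signs at RL14 are partly fixed by them. In 14 members exons overlap a gene on the opposite strand, Eif5b (with Rev1) and Eif6 (with Gm16098) among them. On the same strand, exons of Eif5 overlap the small nucleolar RNA gene Snora28, and those of Eif4g1 overlap Snord66. Exons of Eif4a1, Eif4a2 and Eif4g2 overlap such genes too. The part of these overlaps in the counts was not tested.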

How the data were processed

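RNA of gastrocnemius was sequenced in 52 libraries. The deposited file holds raw counts per gene; per the submitters' processing notes STAR 2.7.3a, featureCounts 1.6.3 and DESeq2 1.30.0 were used with GRCm38, and the strand setting of the counting is not stated there. The counts were tested here with edgeR 4.0.16 (R 4.3.3), using filterByExpr with a minimum count of 10, TMM factors of 0.710 to 1.30 and a robust quasi-likelihood fit over 13 groups of 4 libraries with 39 residual degrees of freedom. All adjusted p-values in the text are Benjamini-Hochberg values from edgeR over 16668 genes, two-sided, and a gene is called under 0.05. Comparisons over drinks or times weight each group equally. On simulated data for RL14_M against RL14_W, 42% of genes changed 1.5-fold and 84% of those changed 2-fold were recovered.

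Identifiers were matched to GENCODE vM21 (55227 of 55487). The members and lists were chosen with earlier results of these data known. Fold changes are named for called members, for members among the 3 highest and 3 lowest estimates of a comparison (in comparisons with no call, often only the widest of these), for the 6 smallest p-values of each F test, and for called genes of the list of 28 related genes. Estimates of members that the GC offset alone called, and of Eif2s1, Eif4e, Eif4g1, Eif4ebp2, Eif5a2, Eif2ak4 and others short of the threshold were added after their values were seen. Same-numbered libraries of different groups did not deviate together (219 pairs, median r 0.013, from -0.305 to 0.390), so the numbers were not used as pairs. No 2 libraries of a group were alike within counting noise (lowest chi-square per degree of freedom 6.82). Alternatives were RLE scaling, no filter, DESeq2 1.42.0, the replicate number as a block, leaving out libraries, a 5.8S covariate and a GC offset (natural spline with 5 degrees of freedom).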

Additional observations from a re-analysis of the deposited data

Results flagged for a closer look

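In 10 of 130 groups of 4 libraries examined (10 genes in 13 groups), 1 library lay far from the other 3 by Dixon's ratio, which chance does in about 1 in 20 groups. Eif5a was affected most often. It was 167.3 CPM in RL14_ML 1 against 55.65 to 66.15 in the others, 134.9 CPM in RL7_ML 1 against 105.1 to 108.9, 60.27 CPM in HU_L 5 against 67.66 to 68.44, and 68.78 CPM in HU_ML 6 against 88.59 to 93.0. Eif5, the GTPase activator of eIF2, was 158.8 CPM in AMB_W 2 against 127.4 to 131.6, and 81.32 CPM in RL7_L 5 against 100.2 to 102.3. Eif2s2 was 172.5 CPM in RL14_L 4 against 118.9 to 126.3. Eif4b was 317.5 CPM in HU_M 4 against 257.2 to 265.6. Among eIF3 subunits, Eif3f was 52.17 CPM in HU_ML 6 against 61.1 to 62.28, and Eif3d was 21.86 CPM in RL14_L 5 against 26.15 to 26.84.

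The drink effect of Eif3d differed between times by the edgeR F test (adjusted p = 0.03633), as described above.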

How the results depend on the processing

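Counts of called members are given beside those of the report. For most alternatives, here and above, no share over all genes is given, so these counts are a description only. In HU_W against AMB_W (0), RLE scaling, DESeq2 and leaving out RL14_ML 1 and 6 each gave 1, and leaving out 1 library gave 0 to 1. In RL7_W against HU_W (2), DESeq2 gave 4, leaving out the Alb-rich libraries 1, leaving out RL14_ML 1 and 6 gave 5, the 5.8S covariate 1, and leaving out 1 library 1 to 3. Without RL14_ML 1 and 6, 2 were called in RL14_W against AMB_W, 2 in RL14_W against RL7_W, 6 in RL7_M, 1 in RL7_ML, 4 in RL14_L and 6 in RL14_ML, where the report has 0. RL7_M gave 1 without the Alb-rich libraries and 0 to 2 without 1 library. RL14_ML gave 1 with DESeq2 and 0 to 12 without 1 library. In RL14_M (4), RLE gave 2, no filter 0, the replicate block 1, no Alb-rich libraries 1, no RL14_ML 1 and 6 gave 8, the 5.8S covariate 0, and leaving out 1 library 0 to 4.

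In RL7 against HU (32) the 5.8S covariate gave 0, and the other alternatives 28 to 37. In RL14 against RL7 (16), no filter gave 8, no Alb-rich libraries 3, no RL14_ML 1 and 6 gave 28, the 5.8S covariate 0, and leaving out 1 library 12 to 29. The F test over groups (31) gave 17 without the Alb-rich libraries. The F test of drink by time (1) gave 0 with RLE, no filter, the replicate block, no Alb-rich libraries or the GC offset, 5 with DESeq2, 11 without RL14_ML 1 and 6, and 0 to 14 without 1 library. The replicate block gave 32 in RL7 against HU, 11 in RL14 against RL7 and 30 in the F test over groups.

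With the GC offset 13 of 52 estimates turned sign in RL7 against HU and 11 in RL14 against RL7, most of them not called in the report. Among called members, signs turned in RL7 against HU with the GC offset for Eif3d (-0.0884), Eif3k (-0.0282) and Eif1ax (0.0280), and with the 5.8S covariate for Eif2b1 (0.0238). In RL14 against RL7 they turned with the GC offset for Eif3d (0.000257) and Eif3b (0.0214), and with the 5.8S covariate for Eif3c (-0.0858) and Eif3j2 (-0.0257). The GC offset, and the 5.8S covariate in comparisons without RL14, were chosen after seeing the data. The cause of these shifts was not tested.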
